A study of Mus musculus with 12 samples.

Results

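The comparison described here is between mouse embryonic stem cells (mESCs) that lack both HMGN1 and HMGN2 and the parental mESCs that lack HMGN2 alone. It uses 6 of the 12 RNA-Seq libraries of the series, 3 per group, and was chosen because the groups differ by a single added edit. The study made knockout lines from v6.5 mESCs, a male line, with CRISPR-Cas9, and each edited line is a single-cell clone. Cells were grown in serum with LIF, and the 3 replicates of each group are called biological and came from 6-well plates. The Hmgn2-/- group carries a 1-base insertion in Hmgn2, and the Hmgn1-/-Hmgn2-/- group carries that same insertion together with a 1-base deletion in Hmgn1. The Hmgn1 guide was delivered to Hmgn2-/- mESCs to obtain the second line, so both groups carry the Hmgn2 edit. The other 6 libraries, WT and Hmgn1-/-, enter only where they are named.

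HMGN1 and HMGN2 attach to the nucleosome core, where they oppose the compaction of chromatin by linker histone H1. Primitive endoderm is the extraembryonic lineage that lines the inner cell mass of the blastocyst. Its transcription factors include GATA6, GATA4 and SOX17, and its descendants secrete basement membrane and take up nutrients through the cubilin receptor complex.

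Hmgn1 RNA was almost gone from the double knockout, and Hmgn2 RNA was the same in both groups. Levels are in CPM, the counts of a gene per 1e+06 counts of its library, scaled across all 12 libraries by the TMM method. Hmgn1 stood at 545, 556 and 639.9 CPM in the Hmgn2-/- libraries and at 21.5, 19.9 and 21.4 CPM in the Hmgn1-/-Hmgn2-/- libraries. The lowest parental library was therefore far above the highest double knockout library. The mean fell from 580.2 ± 52.0 (SD, n = 3) to 20.9 ± 0.880 CPM, which left 3.61% of the parental RNA. Its log2 fold change (FC, double knockout over Hmgn2-/-) was -4.79 with a standard error (SE) of 0.0938. The adjusted p was 5.55e-09 in the quasi-likelihood F test of edgeR, with Benjamini-Hochberg correction over all genes tested; every adjusted p from edgeR below is of this kind. In the Hmgn1-/- line, which was edited separately from WT, Hmgn1 RNA stood at 139.6 CPM against 626 CPM in WT, or 22.3% of the WT level. The double knockout thus kept 3.35% of the WT level, and its Hmgn1 log2 FC against Hmgn1-/- was -2.73.

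Hmgn2 RNA stood at 50.7, 54.6 and 53.8 CPM in Hmgn2-/- and at 53.9, 50.5 and 54.2 CPM in the double knockout, and the ranges overlap. These levels are 42.0% and 41.8% of WT, so an RNA pool remained in both groups. Counts do not report protein. Hmgn3, at 1.10 to 1.34 CPM in the parental libraries and 1.36 to 1.82 CPM in the double knockout, was low throughout. Hmgn5 (log2 FC -0.13), Hmgb1 (-0.03) and Hmgb2 (-0.05) were level, and none of these genes was called.

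**Figure D1:**
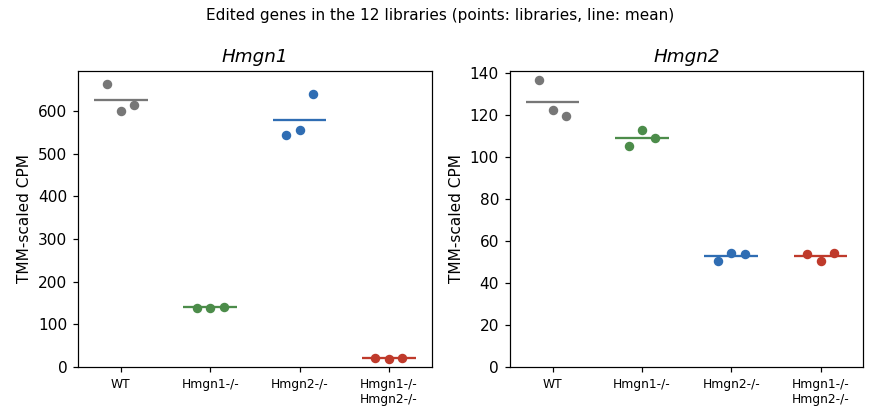
Hmgn1 and Hmgn2 RNA in each library, in CPM, with the groups side by side and each point a library. Hmgn1 lies at 19.9 to 21.5 CPM in the double knockout, while Hmgn2 lies near 53 CPM in both groups being compared.

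The guide sequences given by the study each lie across the end of an exon. In mm10 (GRCm38) the Hmgn1 guide falls at chr16:96127305-96127324 on the + strand, while the gene runs on the - strand. It covers 14 bases of exon 3 of Hmgn1, a coding exon of 30 bases. The Hmgn2 guide falls at chr4:133966417-133966436 on the + strand, again against the strand of the gene, and covers 8 bases of exon 4, a coding exon of 51 bases. Guides are written 5' to 3', and capitals mark the bases that lie in the exon; the intronic bases were not checked, since no genome sequence was used.

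Hmgn1 guide: acttacGGCCGACAGCCTCG

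Hmgn2 guide: aggctggcttacCTTCGCAG

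The cells of both groups carried the RNA of mESCs. Pou5f1 stood at 1647, 1831 and 2168 CPM in Hmgn2-/- and at 1678, 1883 and 1945 CPM in the double knockout. Nanog stood at 172 to 191 CPM and 174 to 195 CPM. Esrrb (log2 FC -0.04), Zfp42 (-0.01), Tdgf1 (-0.02), Utf1 (-0.05) and Dppa5a (-0.09) were level as well. The summed level of the 8 core pluripotency genes was 6261 to 7457 CPM in Hmgn2-/- and 6259 to 6919 CPM in the double knockout, with Pou5f1 giving 26.3% to 29.1% of it. Summed fibroblast markers reached 10.1 to 12.2 CPM and 10.8 to 13.7 CPM, and summed macrophage markers, mostly Cd68, reached 8.18 to 12.2 CPM and 7.07 to 11.1 CPM. The line is male, yet the 4 Y-linked genes summed to no more than 0.896 CPM in these 6 libraries. They summed to 0.307 to 0.430 CPM in Hmgn1-/- and to 4.58 to 6.08 CPM in WT. The cause was not tested.

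Few genes differed between the double knockout and Hmgn2-/- mESCs, and nearly all of these had more RNA in the double knockout. The genes that rose include markers of primitive endoderm, the cubilin complex and basement membrane. The threshold for a called gene is an adjusted p under 0.01 with an absolute log2 FC of at least 1. Of 13816 genes tested, 6 passed it (0.0434%), and of these 5 rose (0.0362%) and Hmgn1 alone fell (0.00724%). Under a wider limit, an adjusted p under 0.05 at any fold change, 36 genes were called (0.261%), and 35 of them rose (0.253%). Below, a gene that rose is one of these 35. Before adjustment, 613 genes had p under 0.05 (4.44%), 382 of them higher and 231 lower. In 1406 genes (10.2%) the groups did not overlap: in 735 (5.32%) every double knockout library was above every parental library, and in 671 (4.86%) every one was below.

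For scale, the same threshold called 70 of 13710 genes (0.511%) between the double knockout and Hmgn1-/-. It called 832 of 13917 genes (5.98%) between Hmgn1-/- and WT, 0.898% higher and 5.08% lower in Hmgn1-/-. Across all genes tested in the double knockout against Hmgn2-/- the median log2 FC was -0.00, and the 5th and 95th percentiles were -0.292 and 0.344.

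**Figure D2:**
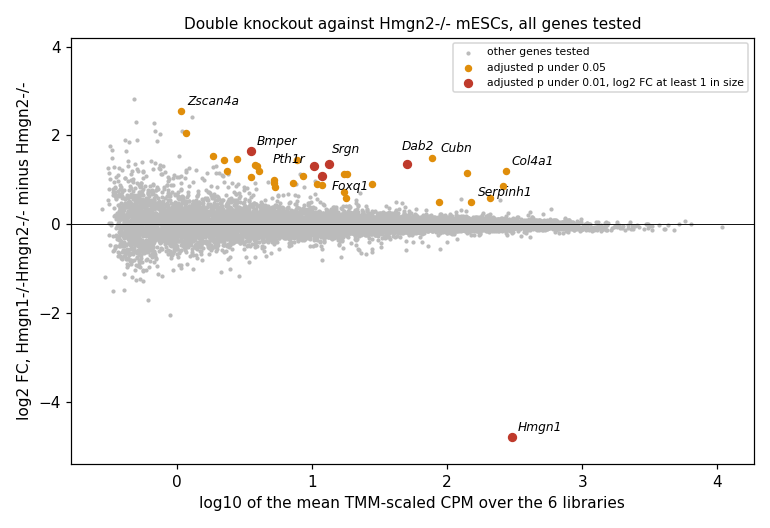
Each point is a gene tested; the horizontal axis is its average level and the vertical axis its log2 FC in the double knockout over Hmgn2-/-. Hmgn1 lies alone at -4.79, and the 35 genes that rose lie between 0.49 and 2.55.

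The counts depend on single libraries. Without Hmgn2-/- replicate 2 only 1 gene passed the threshold and 7 had an adjusted p under 0.05; without Hmgn1-/-Hmgn2-/- replicate 1, 2 or 3 the pairs were 3 and 6, 1 and 4, and 1 and 4. Without Hmgn2-/- replicate 1 they were 12 and 39, and without Hmgn2-/- replicate 3 they were 9 and 40. Hmgn1, Dab2, Srgn and Pth1r kept an adjusted p under 0.05 whichever library was left out. All 35 genes that rose stayed above 0 in every such fit.

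The 5 genes that rose past the threshold are Dab2, Srgn, Pth1r, Foxq1 and Bmper. Dab2, an endocytic adaptor long used as a marker of primitive endoderm, stood at 33.0, 28.0 and 23.9 CPM in Hmgn2-/- and at 73.5, 71.5 and 74.5 CPM in the double knockout. No double knockout library comes near the parental range. The mean rose from 28.3 ± 4.54 to 73.1 ± 1.54 CPM (SD, n = 3), a log2 FC of 1.36 (SE 0.110) with an edgeR adjusted p of 0.00198. Dab2 stood at 3.38 CPM in WT and 22.8 CPM in Hmgn1-/-, so the double knockout is the highest of the 4 groups. Srgn, which encodes the proteoglycan core protein serglycin, stood at 8.21, 6.70 and 7.43 CPM and at 17.95, 19.07 and 20.45 CPM. It too had no overlap, with a log2 FC of 1.36 (SE 0.115; edgeR adjusted p = 0.00202).

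Pth1r, a receptor for parathyroid hormone-related protein that is present on parietal endoderm, stood at 6.10, 6.09 and 5.77 CPM in Hmgn2-/- and at 16.7, 13.6 and 14.1 CPM in the double knockout. The lowest double knockout library was above the highest parental one, and the log2 FC was 1.30 (SE 0.120; edgeR adjusted p = 0.00331). Foxq1, a forkhead factor, stood at 8.02, 6.78 and 8.15 CPM and at 15.5, 17.5 and 15.7 CPM. Its groups are again apart, with a log2 FC of 1.09 (SE 0.117; edgeR adjusted p = 0.00929). Bmper, a secreted modulator of BMP, is the least abundant of the 5, at 1.77, 1.93 and 1.31 CPM and at 5.82, 4.88 and 5.31 CPM. It had the largest log2 FC of them, 1.65 (SE 0.179; edgeR adjusted p = 0.00929). Foxq1 and Bmper kept an adjusted p under 0.05 in 3 of the 6 fits with a library left out.

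All 10 listed regulators of primitive endoderm had more RNA in the double knockout, and 7 of them rose. None of the 10 overlapped between groups, where 5.32% of all genes were apart upward, and 0.253% of all genes rose. The members of this and the other lists were chosen with earlier results of these data known. Such counts therefore describe the lists and do not test them. Among the 7 are Dab2, Foxq1, Gata6, Pdgfra, Gata4 and Sox17. The median log2 FC of the 10 was 1.13, beside -0.00 for all genes tested, and it ran from 1.01 to 1.24 when a library was left out. The number that rose was 1 without Hmgn2-/- replicate 2, and 2, 1 and 1 without double knockout replicates 1, 2 and 3 in turn, so the direction is steadier than the calls. In bulk RNA more cells of a type and more RNA per cell cannot be told apart.

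Gata6 stood at 12.7, 13.2 and 7.91 CPM in Hmgn2-/- and at 25.3, 27.6 and 22.6 CPM in the double knockout (log2 FC 1.14, SE 0.169). Gata4 stood at 22.9, 20.1 and 14.9 CPM and at 39.1, 36.3 and 33.8 CPM (log2 FC 0.91, SE 0.141). In both GATA genes the lowest double knockout library is above the highest parental one, and Hmgn2-/- replicate 3 is the lowest library of the 6. The edgeR adjusted p was 0.041 for Gata6 and 0.0435 for Gata4. Pdgfra, the receptor that marks primitive endoderm at the cell surface, stood at 12.5, 12.1 and 7.73 CPM and at 25.9, 25.8 and 19.9 CPM (log2 FC 1.13, SE 0.174). Sox17 stood at 4.64, 6.74 and 5.06 CPM and at 9.82, 13.9 and 11.7 CPM (log2 FC 1.09, SE 0.177). Pdgfra and Sox17 each had no overlap, with edgeR adjusted p of 0.0435 and 0.0476.

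The other 3 listed regulators were above 0 but not called. Sox7 had a log2 FC of 1.12, Hnf4a 1.53 and Foxa2 1.04, with edgeR adjusted p of 0.0575, 0.0626 and 0.245. Hnf4a is scarce, at 0.476 to 0.576 CPM in Hmgn2-/- and 1.37 to 1.79 CPM in the double knockout. Summed, the 10 regulators reached 105, 95.3 and 74.2 CPM in Hmgn2-/- and 209.9, 213 and 198 CPM in the double knockout. Dab2 is the most abundant of them in each of these 6 libraries, and WT summed to 13.2 to 15.6 CPM.

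**Figure D3:**
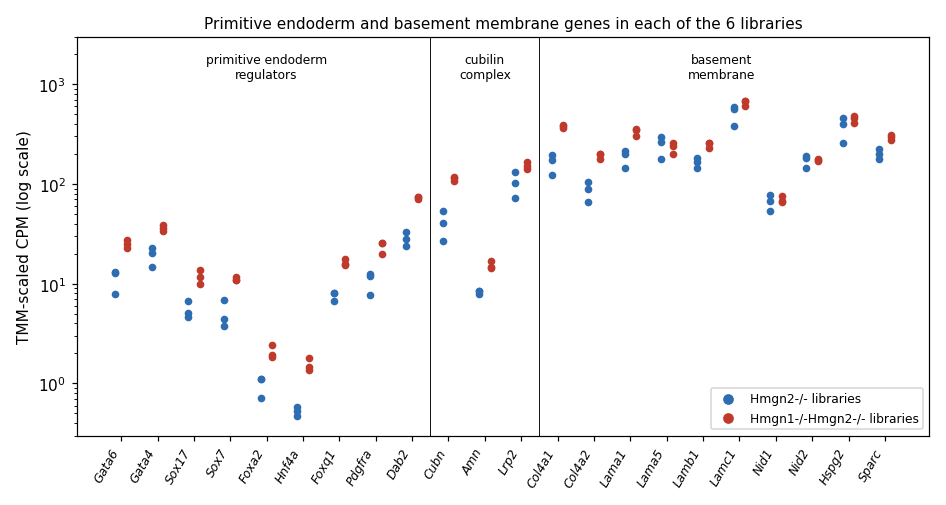
Levels of endoderm genes in each library, in CPM on a log scale; each point is a library and each column a gene. Every double knockout point lies above every Hmgn2-/- point for Dab2 (73.1 against 28.3 CPM on average) and for Gata6 (25.1 against 11.3 CPM).

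Cubn and Amn, of the cubilin complex by which visceral endoderm takes up protein, rose along with the adaptor Dab2. Cubn stood at 53.2, 40.9 and 26.6 CPM in Hmgn2-/- and at 119, 115 and 107 CPM in the double knockout. The parental libraries differ from each other by more than the double knockout libraries do, but the groups stay apart. Its log2 FC was 1.49 (SE 0.194; edgeR adjusted p = 0.0229). Amn, which carries cubilin to the membrane, stood at 8.37, 8.52 and 7.97 CPM and at 14.4, 17.0 and 14.7 CPM. Amn rose with a log2 FC of 0.89 (SE 0.110; edgeR adjusted p = 0.019). Lrp2, which encodes megalin, was above the parental range in every library, at 141 to 166 CPM against 72.0 to 131 CPM, but was not called (log2 FC 0.58). Lrpap1, the chaperone of megalin and its relatives, rose with a log2 FC of 0.49. Of the 4 listed genes of the complex 3 rose, Dab2, Cubn and Amn, beside 0.253% of all genes. All 4 were apart upward, beside 5.32% of all genes. Only 1 rose when Hmgn2-/- replicate 2 or any double knockout library was left out. That gene is Dab2, which is also among the primitive endoderm regulators.

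Of the 10 basement membrane genes tested 4 rose, beside 0.253% of all genes. They are those of the collagen IV chains Col4a1 and Col4a2 and of the laminin chains Lama1 and Lamb1. In 6 of the 10 every double knockout library was above every parental library, beside 5.32% of all genes. Col4a1 stood at 195, 176 and 123 CPM in Hmgn2-/- and at 392, 379 and 367 CPM in the double knockout (log2 FC 1.20, SE 0.141). Col4a2, its partner chain, stood at 104, 89.6 and 66.7 CPM and at 202, 201 and 179 CPM (log2 FC 1.15, SE 0.139). Both collagen IV genes have no overlap between groups, and each had an edgeR adjusted p of 0.0156. The start sites listed for the promoters of Col4a1 and Col4a2 lie 21 bases apart on opposite strands. As a gene, Col4a1 extends past its listed start, from 11312826 to 11312889 on chromosome 8. By these gene ends the genes overlap by 85 bases, and how reads within those bases were counted is not known.

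Lama1 stood at 214, 198 and 145 CPM in Hmgn2-/- and at 352, 351 and 306 CPM in the double knockout (log2 FC 0.86, SE 0.130). Lamb1 stood at 180.4, 168 and 144 CPM and at 261, 257 and 228 CPM (log2 FC 0.60, SE 0.0932). Each laminin gene had an edgeR adjusted p of 0.0435. The third chain of laminin-111, Lamc1, was not called (log2 FC 0.35), and neither were Nid1 (0.07), Nid2 (0.03), Hspg2 (0.28) or Lama5 (-0.08). With a library left out Lamc1 ran from 0.17 to 0.47 and Hspg2 from 0.070 to 0.46. The median log2 FC of the 10 genes was 0.451. None of the 4 kept an adjusted p under 0.05 without Hmgn2-/- replicate 2, or without any of the double knockout libraries.

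A pair of collagen-processing genes rose alongside. P4ha2, a prolyl hydroxylase, stood at 12.7, 13.1 and 13.0 CPM in Hmgn2-/- and at 20.7, 21.7 and 22.0 CPM in the double knockout. Serpinh1, the collagen chaperone HSP47, stood at 124, 125 and 127 CPM and at 176, 175 and 179 CPM. Replicates of each are tight, and the log2 FC were 0.73 (SE 0.0880) and 0.49 (SE 0.0618), with edgeR adjusted p of 0.0156 and 0.019. Sparc, a matrix protein, lay just outside the wider limit with a log2 FC of 0.56 and an edgeR adjusted p of 0.056. Gas6, named after its values were seen, lay there too with a log2 FC of 0.56.

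**Figure D4:**
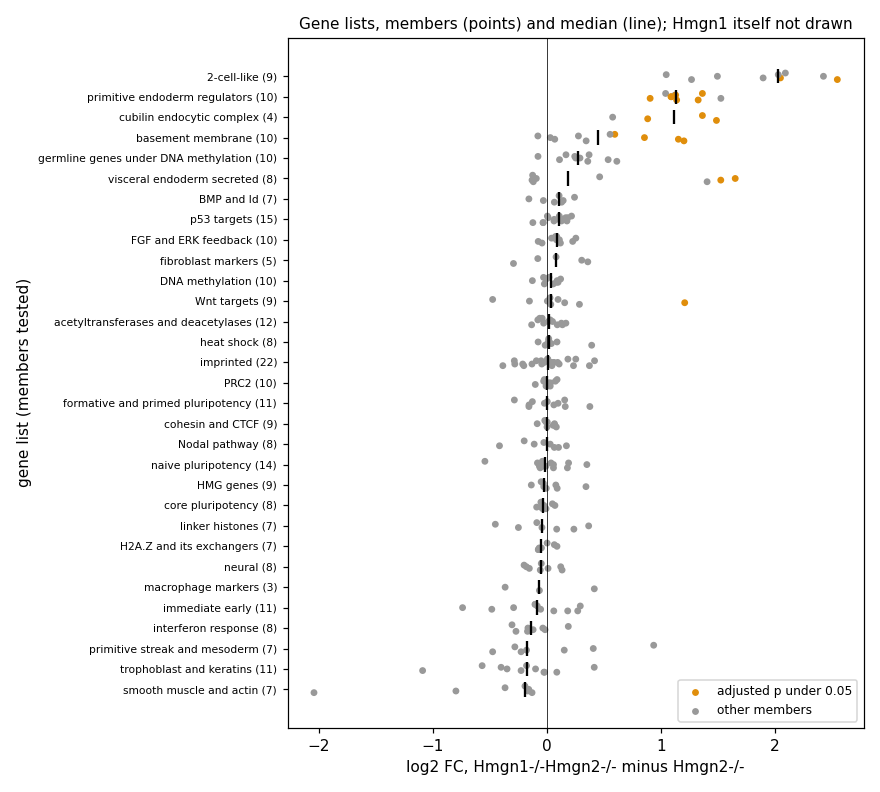
Log2 FC of the tested members of each gene list in the double knockout over Hmgn2-/-. Each point is a gene and the bar is the median. The 2-cell-like list holds 9 tested of 14 genes. The primitive endoderm list centres on 1.13 and the 2-cell-like list on 2.03, while the core pluripotency list centres on -0.0305.

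Some of the other genes that rose encode secreted factors or receptors. Dkk1, a secreted Wnt inhibitor, stood at 2.34, 2.69 and 2.32 CPM in Hmgn2-/- and at 5.28, 5.20 and 6.60 CPM in the double knockout (log2 FC 1.21). Dkk1 was the only one of 9 Wnt targets tested to rise, and the median log2 FC of that list was 0.0356. Bmp6 (log2 FC 0.93), Fgf10 (1.07) and Klb (1.46), a co-receptor for endocrine FGFs, rose as well. Habp2, a secreted protease that is listed with visceral endoderm, rose from 0.998, 1.10 and 0.714 CPM to 2.75, 2.22 and 3.30 CPM (log2 FC 1.53), but lost its call whichever library was left out. Habp2 and Bmper were the only 2 of 8 visceral endoderm secreted genes tested to rise, beside 0.253% of all genes. Of the 8, 4 were above 0. Apoa2 (-0.12), Apob (-0.13), Rbp4 (-0.12) and Apoe (-0.09) were below 0 and not called. Ihh (1.41), which is scarce, was not called either. The list median was 0.186, and it was -0.0883 with thinned counts. Afp, Ttr, Apoa1 and Apoc2 were not tested.

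The other genes that rose belong to no listed group. Stard8 stood at 3.84, 5.26 and 3.09 CPM in Hmgn2-/- and at 10.0, 13.5 and 10.3 CPM in the double knockout (log2 FC 1.44). Nostrin, an endocytic protein, had a log2 FC of 1.31, and Pdzd3, a scaffold protein, 1.00. Cryab, a small heat shock protein, had 0.94, while the 8 listed heat shock genes had a median of 0.0176. Runx1 (0.84), Ankrd33b (0.91), Dram1 (1.19), Sord (0.59) and 9930013L23Rik (1.44) complete them. All of these had an adjusted p under 0.05 and no overlap between groups.

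Zscan4c and Zscan4a, of a family that marks the brief 2-cell-like state of mESCs, rose from a very low level. Zscan4c stood at 0.537, 0.492 and 0.297 CPM in Hmgn2-/- and at 2.30, 1.72 and 1.67 CPM in the double knockout. Zscan4a stood at 0.230, 0.530 and 0.119 CPM and at 2.05, 2.22 and 1.33 CPM. Both have no overlap, with log2 FC of 2.05 and 2.55 (SE 0.415 for Zscan4a) and edgeR adjusted p of 0.0344 and 0.0476. With a library left out Zscan4a ran from 2.27 to 3.29, the last without Hmgn2-/- replicate 2, and kept its call in 1 of 6 fits; Zscan4c kept its call in 2. Of the 14 genes of the 2-cell-like list 9 were tested. All 9 were above 0, and their median was 2.03, beside -0.00304 for all genes tested. Genes this scarce in Hmgn2-/- can pass the expression filter through the double knockout libraries alone, which tilts this count and median upward. The summed level of that list was 2.44 to 3.42 CPM in Hmgn2-/- and 9.03 to 14.7 CPM in the double knockout, still below the 35.8 to 51.6 CPM of WT. Zscan4c and Zscan4d transcripts are 97.1% identical, so reads may be shared among copies and the value of any single copy is uncertain. In such counts a larger share of 2-cell-like cells and more RNA per cell cannot be told apart.

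Fewer genes fell than rose. Hmgn1 was the only gene lower at an adjusted p under 0.05, against 231 lower at unadjusted p under 0.05; DESeq2, run as an alternative, called 14 lower of 92. A fit that treats equal replicate numbers as paired called 34 lower of 125. Among the 14 from DESeq2 are Pgm2, Krt7, Gna14, Acta2 and Tagln, named here after their values were seen. Pgm2 stood at 31.7, 31.9 and 37.9 CPM in Hmgn2-/- and at 21.3, 24.2 and 20.1 CPM in the double knockout, with no overlap (log2 FC -0.63). Its edgeR adjusted p was 0.0592, the lowest after Hmgn1 among genes with less RNA. Krt7 stood at 2.99, 2.54 and 3.15 CPM and at 1.38, 1.22 and 1.44 CPM (log2 FC -1.09). Krt8 (-0.10) and Krt18 (-0.40) were not called by either tool, and Krt18 ran from -0.56 to -0.12 with a library left out. Acta2, at 37, 26 and 31 counts in Hmgn2-/- and 3, 14 and 9 counts in the double knockout, had a log2 FC of -2.04 (edgeR adjusted p = 0.287), which was -1.52 without double knockout replicate 1 and -2.70 without replicate 2.

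Markers of the mESC state and of trophoblast, primitive streak and neural cells had no call in the edgeR fit of the 6 libraries, and few in DESeq2 and the paired fit. Across the core, naive and primed pluripotency lists, 33 genes were tested; none had an adjusted p under 0.05 in either tool, and 4 had an unadjusted p under 0.05, beside 4.44% of all genes. Dppa3, at 16.2, 17.7 and 26.5 CPM in Hmgn2-/- and 14.1, 13.7 and 13.4 CPM in the double knockout, is among these 4 (log2 FC -0.54). Its log2 FC ran from -0.67 to -0.31 with a library left out. Tbx3, another naive marker (log2 FC 0.35), was called higher only in the paired fit. In all, 24 lists had no called gene: of their 221 tested genes 21 had an unadjusted p under 0.05, 9 higher and 12 lower, again beside 4.44% of all genes, and DESeq2 called 3 of them, Krt7, Acta2 and Tagln. The paired fit called these 3 and also Tfap2c, Lefty1 and Ier3 lower. Of the 7 smooth muscle genes tested none was above 0 and 4 were apart downward, beside 4.86% of all genes. The PRC2, acetyltransferase, H2A.Z, linker histone, cohesin and DNA methylation lists hold 55 tested genes with a median log2 FC of 0.00481, and none of them had even an unadjusted p under 0.05.

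Around the edited locus no neighbour changed. Within 500 kb of Hmgn1, the genes Ets2, Psmg1, Brwd1, Wrb, Lca5l and Sh3bgr had log2 FC of -0.06 to 0.15 and none was called. Chromosome medians over the autosomes and X ran from -0.0259 on chromosome 17 to 0.0122 on chromosome 2.

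Promoters of the genes that rose were read for the letters that GATA factors bind, since Gata4 and Gata6 are among these genes. The window was the 250 bases upstream of each start in the RefSeq table of GRCm38.p6, and 31 promoters of 26 of the 35 genes are in it. Annotated exons cover all 250 bases of the windows of Bmp6, Col4a1 and Col4a2, and part of some others, such as 169 for Dkk1. Such cover was not counted for the promoters of all genes. The letters WGATAR, or YTATCW on the other strand (W is A or T, R is A or G, Y is C or T), are in 4 of the 31 (12.9%), those of Dab2, Habp2, Klb and Zscan4c, and in 26.5% of all 32851 promoters. The single form AGATAA, or TTATCT, is in 0 of the 31 and in 9.99% of all; the wider search was added after the narrow one was seen. A match is a description, not a site or a cause.

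Hmgn1 was also edited in cells that kept HMGN2, and most of the 35 genes that rose were higher there too. Hmgn1 RNA fell to 22.3% of the WT level in Hmgn1-/-, and to 3.61% of the parental level in the double knockout. That comparison, Hmgn1-/- against WT, shares no library with the double knockout against Hmgn2-/-. All 35 genes that rose were tested in it: 27 were above 0 (50.8% of all genes were), 21 were past the threshold upward and 4 downward. The median log2 FC of the 35 was 1.14 in the double knockout against Hmgn2-/- and 1.49 in Hmgn1-/- against WT. Dab2 had log2 FC of 1.36 and 2.76, Cubn 1.49 and 3.72, and Gata4 0.91 and 2.55. For Dab2, Cubn and Gata4 the log2 FC was thus smaller in the background without HMGN2, where their RNA was already above WT. In CPM their gain was larger there: Dab2 went from 28.3 to 73.1 CPM, against 3.38 to 22.8 CPM. In the other direction, 832 genes were past the threshold in Hmgn1-/- against WT, 707 of them lower. Of the 832, 687 passed the expression filter of the 6 libraries and were tested here, and the rest were not. Of the 687, 26 had an adjusted p under 0.05, beside 0.261% of all genes tested. These 26 are among the 36 genes called here. Among the 563 of these 687 that were lower in Hmgn1-/-, with a median of -1.54, the median here was 0.0364. Among the 124 that were higher, with a median of 1.33, it was 0.0963. The sign was the same in 334 of the 687, beside 48.7% of all genes. Hmgn1-/- is a clone and WT is not, so loss of HMGN1 and cloning cannot be told apart in that comparison.

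The difference between these log2 FC was tested on all 12 libraries, and 499 of 14323 genes (3.48%) passed the same threshold, 2.98% more positive and 0.503% more negative in the double knockout against Hmgn2-/-. Among the 35 genes, 11 had a smaller log2 FC in the double knockout against Hmgn2-/-, and 6 had a more positive one. All 11 gained more CPM there, so their direction depends on the scale. The 11 include Dab2 (difference -1.39, SE 0.214), Srgn (-1.38), Foxq1 (-1.38), Cubn (-2.24), Gata4 (-1.64) and Pdgfra (-2.39). On the log2 scale Pth1r rose alike in both backgrounds, with log2 FC of 1.30 and 1.49 and a difference of -0.18 (SE 0.229). In CPM it went from 5.99 to 14.8, against 2.03 to 5.81 in Hmgn1-/- over WT. The 6 more positive genes are Zscan4a (6.62), Zscan4c (6.02), Cryab (2.72), Stard8 (1.95), Sord (1.90) and 9930013L23Rik (1.61). Zscan4c, for example, was lower in Hmgn1-/- than in WT (log2 FC -3.97) and higher in the double knockout than in Hmgn2-/- (2.05). The 35 genes were picked on a contrast that enters this difference, which tilts them toward the positive side.

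**Figure D5:**
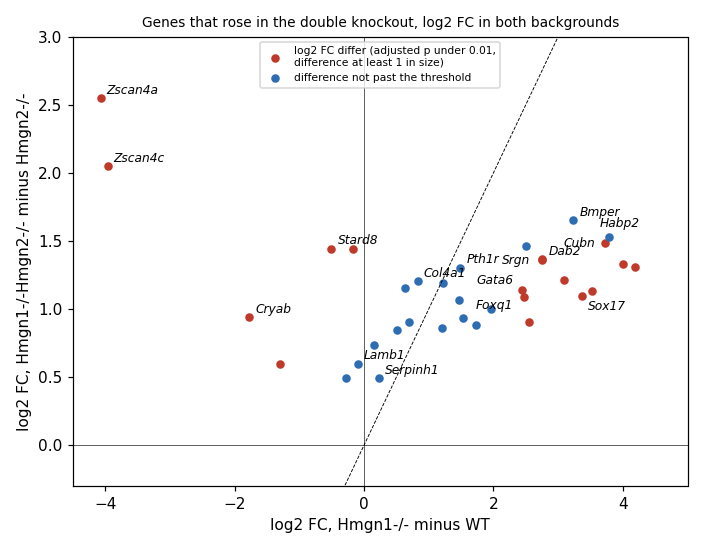
Log2 FC of the genes that rose: the horizontal axis is Hmgn1-/- over WT, the vertical axis the double knockout over Hmgn2-/-, and each point is a gene. Cubn lies at 3.72 and 1.49, while Zscan4c lies at -3.97 and 2.05.

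Hmgn2-/- replicate 3 stands apart from the other libraries. It has the fewest counts, 17337908, and lies at 33.7 on the first principal component (38.6% of the variance), where the other 5 lie between -17.2 and 1.39. Among the 3 Hmgn2-/- libraries, it holds the lowest value of 24 of the 35 genes that rose and of 41.1% of all genes. Left out, the primitive endoderm median was 1.01 and the basement membrane median 0.342. Ribosomal protein genes had a median log2 FC of -0.0982 with it and 0.0574 without it, so their lean downward rests on this library. Each of the 2 groups compared is a single clone, so loss of HMGN1 and differences between clones cannot be told apart. Another clone of each of these genotypes would be needed.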

How the data were processed

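Gene counts are the counts the authors deposited. The methods credit alignment to STAR and mm10; the counting program, annotation and strand setting are not given in the sources used here, and the handling of duplicates is unclear. Libraries of the 6 samples hold 17337908 to 31005479 counts, and 16311 to 16803 genes have at least 1 count. In R 4.3.3, edgeR 4.0.16 filtered genes by its default, scaled by TMM and fitted the 6 libraries with quasi-likelihood; the difference between backgrounds was fitted on all 12. Adjustment is Benjamini-Hochberg over all genes tested. SE is the log2 FC divided by the square root of F. Alternatives were DESeq2 1.42.0, other scaling and filters, thinned counts, a replicate block, all 12 libraries in a fit, and each library left out. Named genes are those with an adjusted p under 0.05 except 1, which is not reported here, members of fixed lists, and genes said to be chosen after their values were seen. The list members were chosen with earlier results of these data known. Intervals cover counting and replicate scatter, not clones.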

Additional observations from a re-analysis of the deposited data

Results flagged for a closer look

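The log2 FC of the double knockout against Hmgn2-/- and of Hmgn1-/- against WT differed in 499 genes. Each edited line is a single clone, so loss of HMGN1 and cloning cannot be told apart in these values. The differences below are the first log2 FC minus the second. Negative differences were seen for Hmgn1 (-2.63), Gna14 (-1.97), Dab2 (-1.39), Srgn (-1.38), Foxq1 (-1.38), Cubn (-2.24), Dkk1 (-1.88), Gata6 (-1.30), Pdgfra (-2.39), Gata4 (-1.64), Nostrin (-2.88) and Sox17 (-2.27). Positive differences were seen for Zfp951 (3.67), Zscan4c (6.02), Dock11 (3.37), Pnma5 (4.50), Gm13247 (1.74), Pim2 (1.70), Pou3f1 (1.40), Hormad2 (2.86), Stard8 (1.95), Cryab (2.72), Sord (1.90), 9930013L23Rik (1.61) and Zscan4a (6.62). Only Zscan4c, Stard8, Cryab, Sord, 9930013L23Rik and Zscan4a among them rose in the double knockout over Hmgn2-/-. Dock11, Pim2, Pou3f1 and Gm13247 had log2 FC of 0.06, -0.12, 0.06 and 0.23 there. In Hmgn1-/- over WT these 4 had -3.31, -1.82, -1.34 and -1.51.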

How the results depend on the processing

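The 6 genes past the threshold became 36 with DESeq2, 21 with no filter beyond 1 count, 18 with all 12 libraries in a single fit, 32 with a replicate block, and 1 when the fold change itself was tested against the limit; leaving out each library in turn gave 1 to 12. At least 10 counts in every library gave 4, and thinned counts gave 5. With an adjusted p under 0.05 and the fold limit they were 24. The 36 genes with an adjusted p under 0.05 became 92 with DESeq2 (14 lower), 61 with no filter, 59 with 12 libraries and 125 with the replicate block (34 lower); leaving out a library gave 4 to 40. At least 10 counts gave 32, and thinned counts gave 31, of which 28 are among the 36. RLE scaling left 6 and 36. The cause of these moves was not tested.

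The replicate block treats libraries with the same replicate number as paired. The libraries are only known to share a number; residual correlations between same-numbered libraries were 0.367, 0.0796 and 0.28.

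Members that rose ranged from 1 to 8 for primitive endoderm regulators, from 0 to 5 for basement membrane and from 1 to 4 for the cubilin complex with a library left out. Hmgn1 stayed at -4.83 to -4.72. The gene-list alternatives and the other added alternatives were chosen after seeing the data.

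Signs of single genes turned only for those near 0 that were not called. Some list medians near 0 changed sign too: over the settings they ran from -0.0721 to 0.0214 for core pluripotency, -0.035 to 0.151 for Wnt targets and -0.0189 to 0.0652 for heat shock. Zfp42 had a log2 FC of 0.014 with thinned counts. With a library left out, log2 FC ran from -0.035 to 0.025 for Hmgn2, -0.21 to 0.00045 for Hmgn5, -0.075 to 0.039 for Hmgb1, -0.11 to 0.043 for Hmgb2, -0.27 to 0.080 for Lama5, -0.062 to 0.19 for Nid1 and -0.083 to 0.12 for Nid2. The ranges were -0.12 to 0.076 for Pou5f1, -0.19 to 0.069 for Dppa5a, -0.063 to 0.033 for Tdgf1, -0.087 to 0.062 for Zfp42 and -0.22 to 0.14 for Krt8.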
